A study of Mus musculus with 46 samples.

Results

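Macrophages grown in culture from mouse bone marrow (BMDM) were exposed to ICI, the estrogen receptor antagonist fulvestrant, in 5 libraries and to Vehicle in 6, and these 11 of the study's 46 RNA libraries are compared here over all genes. The groups were taken from the treatment labels, and every gene of the table was a member: 24671 genes, of which 13838 had enough counts to be tested. The study set ligands of the liver X receptors (LXR) and the estrogen receptors (ER) side by side in the same cells. Other groups used below have 5 libraries each and received the oxysterol 27-hydroxycholesterol (27HC), ICI + 27HC, or estradiol (E2), the natural ER agonist. The labels name no genotype, strain, sex or age of the mice, and they give neither a dose nor an exposure time. They also do not say whether replicates were grown from different mice or dishes; p-values therefore measure the spread between these libraries, which may be technical. The library descriptions begin with a letter that is A for each Vehicle library and D for each ICI library, so whatever the letter stands for cannot be told apart from the treatment.

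Estrogen receptors are nuclear receptors that bind DNA or other factors when estradiol is present, and fulvestrant, an estradiol derivative with a long side chain, blocks ERα and leads to its degradation. It has also been described as an agonist of the membrane receptor GPER1. In macrophages, the sterol content of the endoplasmic reticulum sets how much of the transcription factor SREBP2 reaches the nucleus: with little sterol, SREBP2 raises the genes of cholesterol synthesis and uptake. Oxysterols act at both ends of this system, since they hold SREBP2 back through INSIG proteins and activate LXR, which raises genes of cholesterol export. A separate branch, the integrated stress response, passes through the transcription factor ATF4 to genes of amino acid supply.

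Levels are given as counts per 1000000 (CPM) after TMM scaling, and means are given with the SD over 5 ICI or 6 Vehicle libraries. A gene is called changed when the adjusted p of edgeR's quasi-likelihood test is under 0.05. Fold changes are ICI over Vehicle, on the log2 scale with their SE. This SE is back-calculated, as the size of the log2 fold change over the square root of the test's F statistic. Library totals ran from 21018541 to 30921038 estimated counts with ICI and from 19935444 to 26037620 with Vehicle (exact permutation test, two-sided, p = 0.613). Mitochondrially encoded transcripts took 1.98% ± 0.139 of the counts with ICI and 1.60% ± 0.103 with Vehicle, with no overlap between libraries (difference 0.387 percentage points, exact permutation p = 0.00216, the smallest that 462 arrangements allow, adjusted p = 0.00432 over 6 such values). Macrophage markers were strong throughout: Csf1r, the receptor of the growth factor that drives these cultures, averaged 2438 ± 24.1 CPM with ICI and 2931 ± 82.1 CPM with Vehicle, and Cd68 averaged 1533 ± 19.3 CPM with ICI and 1192 ± 26.2 CPM with Vehicle. Of 12 neutrophil markers only 3 had enough counts to be tested and Ly6g and Elane were at 0 in all 11 libraries, while the stromal markers Col1a1 and Sparc were detected in all of them. In the first principal component of the 11 libraries, which held 21.3% of the variance, all ICI libraries lay on one side, between 16.13 and 23.45, and all Vehicle libraries on the other, between -18.88 and -12.35.

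ICI changed many genes by small amounts. Of 13838 genes, 1925 (13.9%) were higher and 1729 (12.5%) lower with ICI than with Vehicle, and the median size of a called change was 0.24 on the log2 scale. At least 2-fold differences were called for 66 higher and 87 lower genes, and at least 1.5-fold differences for 205 higher and 254 lower genes. The 5 ICI and 6 Vehicle libraries did not overlap in 2114 genes (15.3% of those tested), 1033 of them called higher and 1014 called lower. At the low end stood the adhesion receptor gene Adgre4 (6.61-fold lower), the cytokine gene Il1b (6.21-fold lower), the arginase gene Arg2 (4.61-fold lower) and the formyl peptide receptor gene Fpr1 (4.02-fold lower), and among the smallest p-values the sterol-sensing gene Insig1 and Txnip, a glucose-responsive inhibitor of thioredoxin. At the high end stood Tmem178, Soat2, whose enzyme esterifies cholesterol, the ADP receptor gene P2ry1 and the sterol exporter gene Abcg1 (2.66-fold higher).

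**Figure D1:**
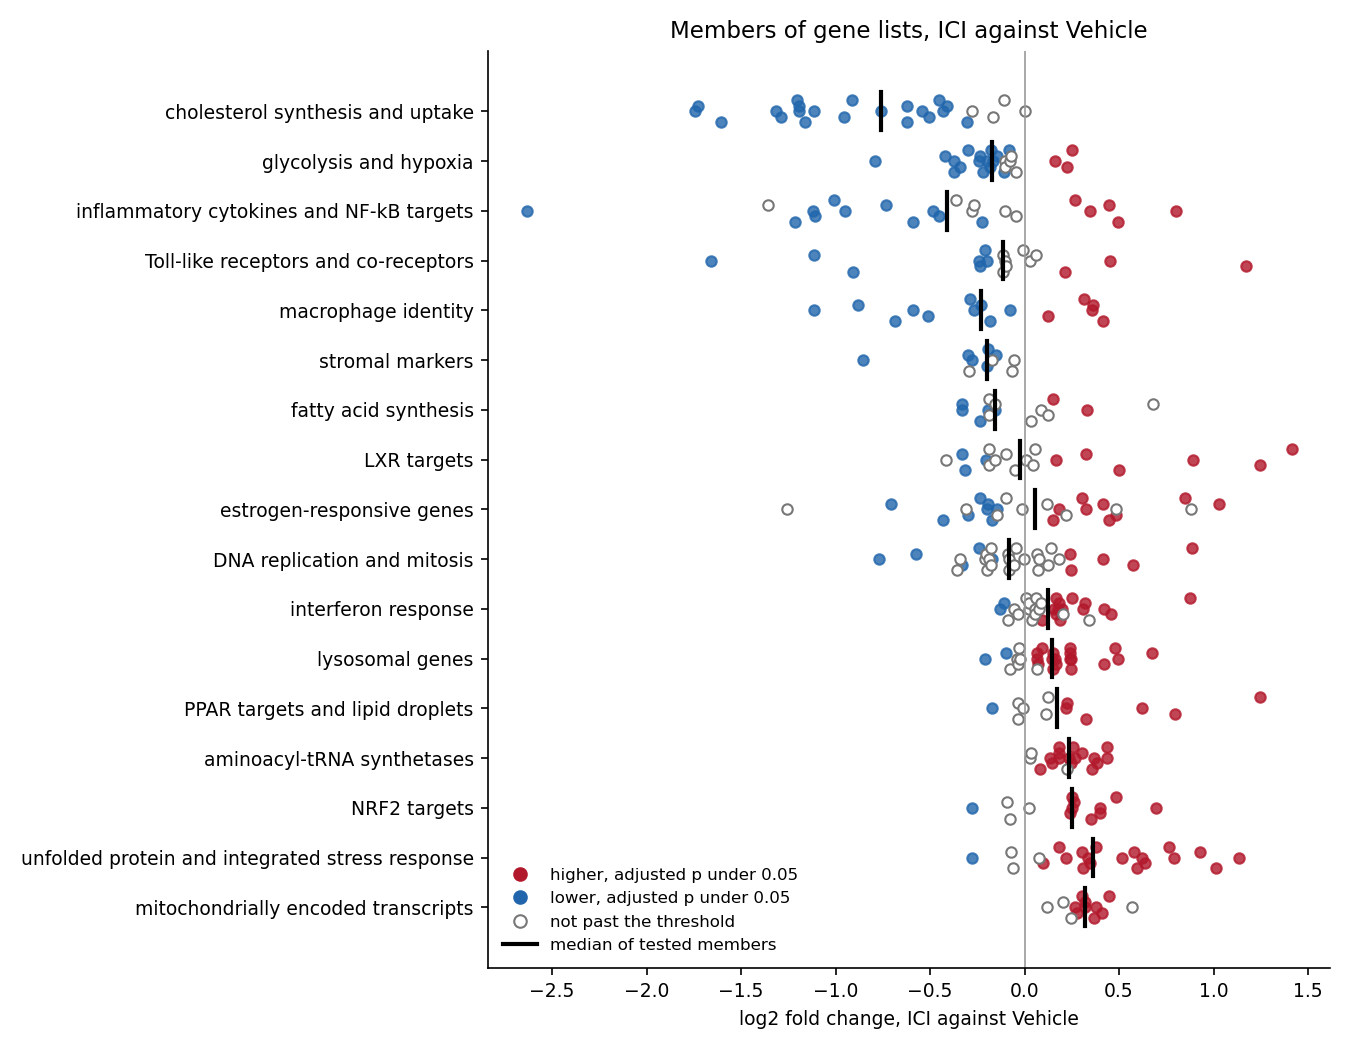
Members of 17 gene lists by their log2 fold change of ICI against Vehicle (horizontal axis), 1 point per tested gene, filled where the adjusted p is under 0.05 and open otherwise, with the list's median as a bar. The median of the cholesterol list lies at -0.76 with 21 of 25 genes called lower, and that of the stress list at 0.36 with 18 of 22 called higher; the vertical shift within a list only separates points.

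RNA of the receptors that ICI is made for was scarce. Esr1, which encodes ERα (chr10:4611593-5005614, plus strand, GRCm38, as are all gene positions here), had 4.82, 5.79, 5.96, 5.18 and 5.94 CPM with ICI, against 5.79 to 6.61 CPM (median 6.22) with Vehicle. The groups overlapped and the difference was not called (log2 fold change -0.16 ± 0.102, adjusted p = 0.285). With 27HC, Esr1 fell with ICI, averaging 2.46 ± 0.236 CPM with ICI + 27HC and 3.74 ± 0.313 CPM with 27HC (log2 fold change -0.61, adjusted p = 5.06e-05). The difference between the effects was -0.45 (adjusted p = 0.0373), a call lost in 13 alternatives (adjusted p up to 0.0798). Esr2, which encodes ERβ, was between 0 and 0.101 CPM with ICI and between 0 and 0.224 CPM with Vehicle and had too few counts to be tested. Gper1 had 0.147, 0.0835, 0.324, 0.167 and 0.115 CPM with ICI, against 0.106 to 0.682 CPM (median 0.279) with Vehicle, again with overlap and without a call (log2 fold change -1.06 ± 0.463, adjusted p = 0.0893). Of 22 genes for estrogen receptors and their coregulators 19 were tested, and 1 was called higher and 1 lower, the RNA helicase coregulators Ddx17 (0.09, adjusted p = 0.0305) and Ddx5 (-0.07, adjusted p = 0.0221), both by little. Ncoa7, a coactivator, was at -0.20 (adjusted p = 0.0781). The LXR genes moved slightly and in opposite directions: Nr1h3, encoding LXRα, averaged 80 ± 2.62 CPM with ICI and 71.3 ± 3.32 CPM with Vehicle (log2 fold change 0.17 ± 0.059, adjusted p = 0.0295), and Nr1h2, encoding LXRβ, averaged 74.1 ± 2.47 CPM with ICI and 81.3 ± 2.09 CPM with Vehicle (log2 fold change -0.13 ± 0.037, adjusted p = 0.00458). Several of these small differences lay near the threshold, and their calls changed under alternatives while the log2 fold changes kept their sign. Ddx5 lost its call without ICI replicate 5 (-0.06, adjusted p = 0.0614), and also without a filter on low counts (adjusted p = 0.0605) and with only the ICI and Vehicle libraries in the fit (adjusted p = 0.0506). Ddx17 lost it without ICI replicate 4 (0.06, adjusted p = 0.159) or 5, without Vehicle replicate 1, 3 or 4, and with only the ICI and Vehicle libraries in the fit (adjusted p = 0.0691). Nr1h3 lost it without ICI replicate 3 or 5 or Vehicle replicate 2 or 5 (0.14 to 0.16, adjusted p from 0.0547 to 0.0946) and without a filter on low counts (adjusted p = 0.0504). Ncoa7 gained a call without ICI replicate 1 (-0.24, adjusted p = 0.0389) and with only the ICI and Vehicle libraries in the fit (adjusted p = 0.0351), and Gper1 gained one without ICI replicate 3 (-1.50, adjusted p = 0.0274) or Vehicle replicate 5 (-1.23, adjusted p = 0.0446).

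Genes known to respond to estradiol in ER-positive cells moved in both directions. Of 36 listed, 26 were tested, 9 were higher and 8 lower (against 13.9% and 12.5% of all genes), and the median was 0.05; the median over all tested genes was 0.01. Ccnd1, the cyclin D1 gene, which estradiol raises in breast cancer cells, was higher with ICI: it had 258, 252, 243, 265 and 243 CPM with ICI, against 120.2 to 155 CPM (median 142) with Vehicle. The groups did not overlap (log2 fold change 0.85 ± 0.045, adjusted p = 8.74e-20). Igf1, a growth factor gene, was higher as well, at 752 ± 33.7 CPM with ICI and 537 ± 22.7 CPM with Vehicle (log2 fold change 0.49 ± 0.031, adjusted p = 4.81e-17), and so were Myc (0.45, adjusted p = 1.20e-09) and the stress-linked transcription factor gene Xbp1 (0.30, adjusted p = 3.09e-14). Igfbp4, whose product binds IGF1, fell, averaging 161 ± 8.91 CPM with ICI and 217 ± 6 CPM with Vehicle (log2 fold change -0.43 ± 0.045, adjusted p = 1.30e-10). In E2 libraries it was higher than with the same Vehicle libraries, by 0.42 (adjusted p = 1.86e-09). Most of the list was not called with E2. Of the 26 tested genes 2 were higher and 2 lower there, against 2.2% and 2.49% of all genes, with a median of 0.06. The chemokine gene Cxcl12, which the list of stromal markers described below also holds, fell with ICI (-0.30, adjusted p = 9.70e-10). The classical ER targets Greb1, Pgr and Tff1 had too few counts to be tested, and Tff1 was at 0 in all 11 libraries. An estrogen response element spelled GGTCANNNTGACC was found on either strand in 0.074% of 27025 promoter windows of 300 bases and in 0 of the 28 windows of these genes. With so rare a pattern a match in 28 windows was hardly possible, so its absence says nothing about these genes.

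Genes of cholesterol synthesis and uptake fell almost throughout. Of 25 tested genes (27 listed), 0 were higher and 21 were lower, against 12.5% of all genes, and the median was -0.76. In 20 of the 25 every ICI library lay below every Vehicle library, where 15.3% of all genes had no overlap in either direction. Their summed level was 665 to 688 CPM with ICI and 1209 to 1282 CPM with Vehicle. Promoters of genes in this list are shown because the genes moved together. In RefSeq windows on GRCm38.p6, CCAAT, the box bound by NF-Y, was found on either strand in 18 of 19 list genes with a window, against 41.1% of 27025 windows; it was also found in 18 of 21 windows of the stress-response list and in 10 of 14 of the LXR target list. The sterol element spelled TCACNCCAC was found in 1 of 19, against 1.44%. The patterns do not overlap one another, and a match describes letters, not a site. In Hmgcs1 (chr13:119690101-119690400, plus strand) and Idi1 (chr13:8885356-8885655, plus strand) capitals mark CCAAT, read as ATTGG on the other strand, and in Hmgcs1 also the sterol element.
Hmgcs1: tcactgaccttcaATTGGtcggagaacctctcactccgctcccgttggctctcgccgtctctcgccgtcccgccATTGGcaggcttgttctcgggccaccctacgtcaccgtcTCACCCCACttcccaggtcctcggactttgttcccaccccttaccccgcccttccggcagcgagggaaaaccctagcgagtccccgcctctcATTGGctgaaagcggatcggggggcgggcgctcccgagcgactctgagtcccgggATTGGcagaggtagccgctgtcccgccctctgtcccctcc
Idi1: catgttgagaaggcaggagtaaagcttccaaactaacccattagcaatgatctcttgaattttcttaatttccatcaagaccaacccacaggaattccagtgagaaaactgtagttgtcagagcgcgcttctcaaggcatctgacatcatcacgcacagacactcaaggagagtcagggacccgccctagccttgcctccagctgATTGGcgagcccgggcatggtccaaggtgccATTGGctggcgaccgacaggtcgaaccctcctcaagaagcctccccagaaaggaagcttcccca

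The first enzymes of the pathway fell. Hmgcs1, which makes HMG-CoA (chr13:119690379-119708260, plus strand), had 38.9, 40.7, 39.4, 40.5 and 40.5 CPM with ICI, against 72.4 to 78.4 CPM (median 75.5) with Vehicle. The groups were far apart (log2 fold change -0.91 ± 0.038, adjusted p = 1.16e-23). Mvk (-0.30, adjusted p = 6.41e-05), Pmvk (-0.43, adjusted p = 3.23e-06) and Mvd (-1.19, adjusted p = 4.77e-18), which carry mevalonate on, fell as well. Idi1, the isomerase that makes the prenyl building block (chr13:8885501-8892451, plus strand), had 16.6, 15.5, 18, 16.6 and 18.2 CPM with ICI, against 51.5 to 60.8 CPM (median 56.4) with Vehicle. No ICI library came near the lowest Vehicle library (log2 fold change -1.73 ± 0.053, adjusted p = 2.17e-28). Fdps and Fdft1, which join prenyl units up to squalene, fell by similar amounts, with log2 fold changes of -1.20 (adjusted p = 8.05e-21) and -1.11 (adjusted p = 5.12e-17).

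The later, sterol-forming steps were less even. Sqle, squalene epoxidase, had 19.5, 22, 19.5, 18 and 18.5 CPM with ICI, against 45.5 to 50.5 CPM (median 49.1) with Vehicle, and the groups did not overlap (log2 fold change -1.31 ± 0.050, adjusted p = 6.03e-25). Cyp51 (-1.19, adjusted p = 1.45e-12) and Msmo1 (-0.95, adjusted p = 5.43e-21), which remove methyl groups from lanosterol, also fell. Dhcr7, an enzyme of the last steps, changed less, with -0.41 (adjusted p = 8.18e-05). Lss, Nsdhl, Ebp and the sterol-binding Tmem97 were not called, with -0.28 (adjusted p = 0.219), -0.17 (adjusted p = 0.0534), 0.00 (adjusted p = 0.983) and -0.11 (adjusted p = 0.0512).

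Regulators of the pathway changed with synthesis. Insig1, an SREBP target whose product holds SREBP in the endoplasmic reticulum (chr5:28071363-28078662, plus strand), had 30, 31.3, 32.1, 31.5 and 32.6 CPM with ICI, against 66.8 to 74.9 CPM (median 70.9) with Vehicle, without overlap (log2 fold change -1.16 ± 0.035, adjusted p = 9.16e-29). Srebf2, the gene of SREBP2, averaged 108 ± 4.35 CPM with ICI and 182 ± 6.42 CPM with Vehicle (log2 fold change -0.76 ± 0.039, adjusted p = 3.39e-20), and Stard4, a sterol carrier, averaged 15.8 ± 1.11 CPM with ICI and 38.5 ± 1.81 CPM with Vehicle (log2 fold change -1.29 ± 0.054, adjusted p = 1.58e-23). Mylip, an LXR target whose ubiquitin ligase limits lipoprotein uptake (chr13:45389742-45412022, plus strand), moved the other way: it had 64.9, 66.6, 64.5, 66.9 and 63.4 CPM with ICI, against 32.6 to 37.3 CPM (median 35.8) with Vehicle. All ICI libraries were higher (log2 fold change 0.89 ± 0.035, adjusted p = 3.13e-24).

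**Figure D2:**
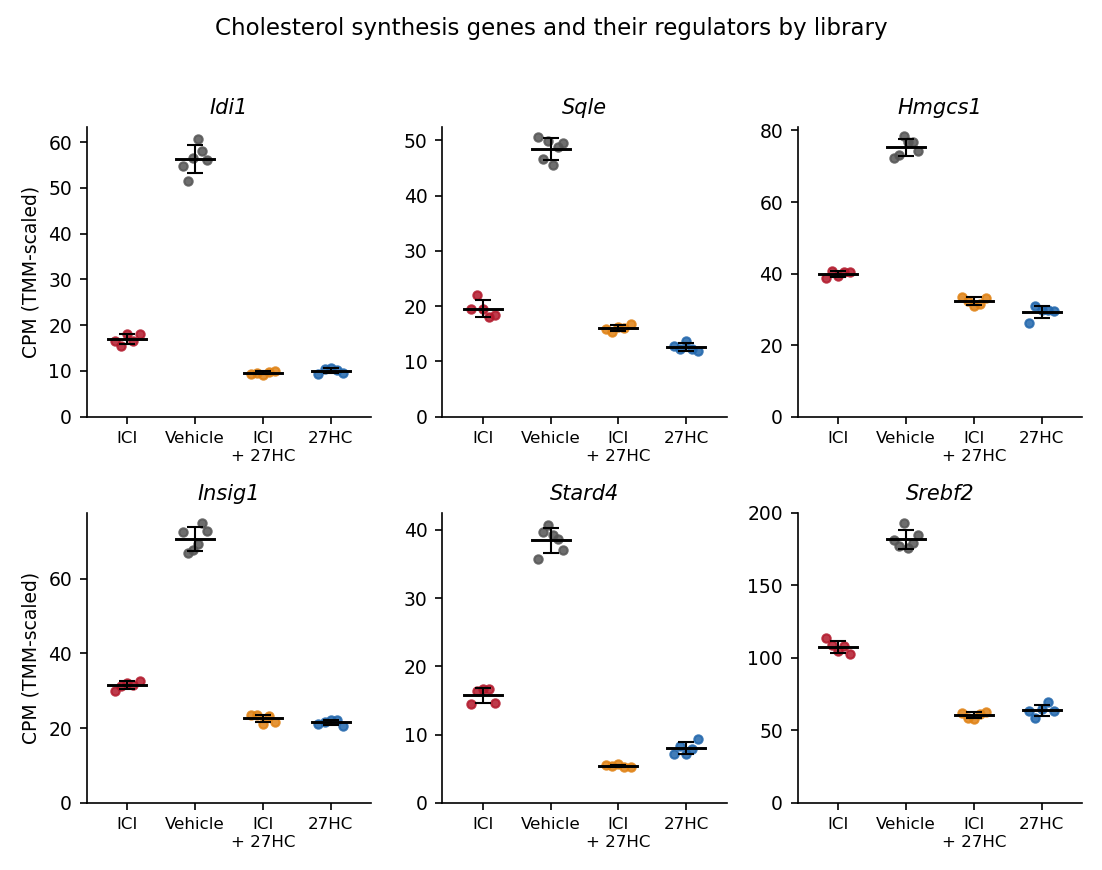
Levels (CPM, linear axes from 0) of 6 genes of cholesterol synthesis and its regulation in each library with ICI, Vehicle, ICI + 27HC and 27HC; points are libraries, lines means and bars SD. ICI libraries lie below Vehicle libraries in all 6 genes, and the 2 groups with 27HC lie lower still; in Idi1 the mean is 9.58 CPM with ICI + 27HC and 10.1 CPM with 27HC.

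When 27HC was present, the lowering by ICI was not seen in most of these genes. Between ICI + 27HC and 27HC libraries, none of which enter the comparison above, 8 of the 25 genes were higher (16.8% of all genes were) and 4 lower (17.4% of all genes), with a median of 0.07. The ICI effect itself differed with and without 27HC for 19 of the 25, always in the positive direction; 17.4% of all genes differed in either direction. Idi1 averaged 9.58 ± 0.36 CPM with ICI + 27HC and 10.1 ± 0.556 CPM with 27HC (-0.07, adjusted p = 0.456), and the difference between the effects was 1.66 (adjusted p = 1.70e-20). Sqle averaged 16 ± 0.471 CPM with ICI + 27HC and 12.6 ± 0.715 CPM with 27HC, with a log2 fold change of 0.35 (adjusted p = 1.74e-06) and a difference between the effects of 1.67 (adjusted p = 1.12e-21). Stard4 and Tm7sf2 still fell with ICI in the presence of 27HC, with -0.56 (adjusted p = 6.54e-09) and -0.57 (adjusted p = 3.74e-05). The levels themselves were already low with 27HC, as the values of Idi1 and Sqle show; ICI alone had 17 CPM of Idi1 and 19.5 CPM of Sqle.

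LXR targets were higher in 6 and lower in 3 of 18 tested (20 listed), against 13.9% and 12.5% of all genes, with a median of -0.02. Abcg1, the exporter that loads cholesterol onto HDL (chr17:31057675-31117988, plus strand), had 120.0, 111, 109, 109 and 100.2 CPM with ICI, against 35.1 to 52.8 CPM (median 38.3) with Vehicle. The groups did not overlap (log2 fold change 1.41 ± 0.069, adjusted p = 9.34e-21). Its partner Abca1, which loads apolipoprotein A-I, had 375, 409.5, 368, 369.9 and 377 CPM with ICI, against 345 to 429 CPM (median 397) with Vehicle. Here the groups overlapped and no change was called (log2 fold change -0.05 ± 0.063, adjusted p = 0.614). Srebf1, which drives fatty acid synthesis, was not called either (-0.10, adjusted p = 0.155). Lpl, lipoprotein lipase, which frees fatty acids from lipoproteins (chr8:68880491-68907448, plus strand), rose, with 4427, 4057, 4172, 4113 and 3858 CPM in ICI libraries, against 1554 to 1957 CPM (median 1727) in Vehicle libraries. All ICI libraries were above all Vehicle libraries (log2 fold change 1.25 ± 0.046, adjusted p = 6.03e-25). Eepd1, a gene LXR raises in macrophages, rose (0.50, adjusted p = 5.09e-11), while Apoe (-0.21, adjusted p = 0.0035), Scd2 (-0.33, adjusted p = 3.00e-08) and Arl4c (-0.31, adjusted p = 8.17e-17) fell. With 27HC, Abcg1 averaged 330.3 ± 19.2 CPM with ICI + 27HC and 342 ± 15.7 CPM with 27HC, without a call (-0.05, adjusted p = 0.595), and Lpl still rose with ICI, by 0.32 (adjusted p = 5.18e-07). The ICI effect was smaller there in both, by -1.46 (adjusted p = 5.50e-16) and -0.93 (adjusted p = 8.65e-15).

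Among 12 tested PPAR targets and lipid droplet genes 6 were higher and 1 lower (against 13.9% and 12.5% of all genes), with a median of 0.17. Pparg, the gene of the lipid-sensing receptor PPARγ, averaged 40.8 ± 2.06 CPM with ICI and 26.5 ± 2.9 CPM with Vehicle (log2 fold change 0.62 ± 0.058, adjusted p = 4.51e-12). Fabp4, a fatty acid carrier (chr3:10204088-10208576, minus strand), had 25, 23, 26.3, 25.3 and 26.1 CPM with ICI, against 13 to 15.9 CPM (median 14.8) with Vehicle, and the groups did not overlap (log2 fold change 0.80 ± 0.060, adjusted p = 8.37e-15). Cd36, a scavenger receptor for oxidised LDL, averaged 1710.3 ± 57 CPM with ICI and 1366 ± 63 CPM with Vehicle (log2 fold change 0.32 ± 0.025, adjusted p = 2.09e-14), and the droplet coat gene Plin2 rose by 0.22 (adjusted p = 1.75e-08). Ucp2, a mitochondrial carrier, fell (-0.17, adjusted p = 1.91e-05). Soat2 had low levels, with 2.21, 2.55, 1.76, 1.71 and 1.74 CPM in ICI libraries, against 0.446 to 0.732 CPM (median 0.637) in Vehicle libraries. All ICI libraries were higher (log2 fold change 1.64 ± 0.178, adjusted p = 3.53e-10). Fabp3, a further fatty acid carrier, averaged 4.87 ± 0.332 CPM with ICI and 1.98 ± 0.263 CPM with Vehicle (log2 fold change 1.30 ± 0.110, adjusted p = 2.71e-13). Fatty acid synthesis genes were called lower in 5 and higher in 2 of 14 tested (against 12.5% and 13.9% of all genes), with a median of -0.15: Acly, which makes cytosolic acetyl-CoA, fell by 0.16 (adjusted p = 1.48e-06), Slc25a1, which exports citrate for it, by 0.24 (adjusted p = 1.27e-07), and the desaturase Fads1 by 0.20 (adjusted p = 1.06e-07). Fasn itself was not called (-0.19, adjusted p = 0.204). Scd2, Fasn, Acaca and Scd1 belong to both this list and the LXR list, and Lpl to the LXR and PPAR lists, so these lists are not separate.

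Lysosomal genes were higher in 18 and lower in 2 of 26 tested (against 13.9% and 12.5% of all genes), with a median of 0.15, and their summed level was 47686 to 49596 CPM with ICI and 42069 to 43764 CPM with Vehicle. Atp6v0d2, a subunit of the proton pump found mainly in macrophages and osteoclasts (chr4:19876841-19922605, minus strand), had 55.1, 53.5, 58.4, 56.7 and 52.8 CPM with ICI, against 31.8 to 36.3 CPM (median 35) with Vehicle. The groups were apart (log2 fold change 0.68 ± 0.041, adjusted p = 6.50e-18). Lipa, the acid lipase that frees cholesterol from LDL esters, averaged 2352 ± 66 CPM with ICI and 1686 ± 81.2 CPM with Vehicle (log2 fold change 0.48 ± 0.026, adjusted p = 9.31e-20). Gpnmb, a glycoprotein of lipid-laden macrophages, averaged 6539 ± 139 CPM with ICI and 4881 ± 89.4 CPM with Vehicle (log2 fold change 0.42 ± 0.020, adjusted p = 6.24e-22). Tfeb, the transcription factor of lysosome genes, rose by 0.25 (adjusted p = 4.72e-06), and Ctsl, cathepsin L, fell by 0.21 (adjusted p = 2.88e-07). The pattern TCACGTGA, which TFEB binds, was found in 6 of 19 windows of the list, against 1.12% of all windows.

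Genes of the unfolded protein and integrated stress response rose: 18 of 22 tested were higher, against 13.9% of all genes, and 1 was lower, with a median of 0.36. In all 18 of the higher genes every ICI library was above every Vehicle library, where 15.3% of all genes had no overlap in either direction. The summed level was 5497 to 5688 CPM with ICI and 4241 to 4367 CPM with Vehicle. The composite element spelled TTGCATCA, to which ATF4 binds with C/EBP partners, was found on either strand in the windows of Atf3, Chac1, Herpud1 and Slc7a11, 4 of 21 in the list, against 1.03% of 27025. Chac1 (chr2:119350992-119351291, plus strand) and Slc7a11 (chr3:50443564-50443863, minus strand, with 2 matches) are printed because they share the element and moved in opposite directions with ICI; capitals mark it, read as TGATGCAA on the other strand.
Chac1: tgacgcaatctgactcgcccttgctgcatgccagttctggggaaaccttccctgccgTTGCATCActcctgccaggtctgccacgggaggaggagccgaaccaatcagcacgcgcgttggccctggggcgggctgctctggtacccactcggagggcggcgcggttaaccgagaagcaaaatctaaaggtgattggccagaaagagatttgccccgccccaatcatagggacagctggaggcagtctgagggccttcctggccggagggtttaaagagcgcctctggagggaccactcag
Slc7a11: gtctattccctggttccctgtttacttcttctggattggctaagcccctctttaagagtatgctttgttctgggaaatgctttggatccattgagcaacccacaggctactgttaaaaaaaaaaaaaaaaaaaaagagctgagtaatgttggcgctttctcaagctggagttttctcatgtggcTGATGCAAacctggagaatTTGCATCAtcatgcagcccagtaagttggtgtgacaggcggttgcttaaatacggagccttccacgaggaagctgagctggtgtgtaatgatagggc

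Atf4, the transcription factor at the centre of the response (chr15:80255184-80257541, plus strand), had 194, 187, 196, 189.8 and 194 CPM with ICI, against 119 to 131 CPM (median 123) with Vehicle. All ICI libraries were higher (log2 fold change 0.64 ± 0.027, adjusted p = 2.33e-23). Its target Trib3, a pseudokinase that feeds back on ATF4 (chr2:152337422-152344032, minus strand), had 21.5, 24.3, 23.4, 23.9 and 25 CPM with ICI, against 9.32 to 12.2 CPM (median 10.7) with Vehicle, again without overlap (log2 fold change 1.14 ± 0.052, adjusted p = 6.15e-22). Atf3, a transcription factor induced by stress, had 232, 198, 209, 223 and 192 CPM with ICI, against 95.4 to 117 CPM (median 102) with Vehicle. The groups did not overlap (log2 fold change 1.01 ± 0.050, adjusted p = 8.05e-21). Ddit3, encoding the stress factor CHOP, rose by 0.76 (adjusted p = 6.36e-17), and Chac1, which breaks down glutathione, by 0.62 (adjusted p = 3.81e-07). Slc7a11, the cystine importer, went against the list. It had 32.1, 35.1, 32.6, 30.4 and 33.4 CPM with ICI, against 31.6 to 45.3 CPM (median 39.1) with Vehicle; the groups overlapped, and it was called lower (log2 fold change -0.28 ± 0.082, adjusted p = 0.00808).

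Enzymes of amino acid and folate supply rose with them. Mthfd2, a mitochondrial folate enzyme (chr6:83305691-83325908, minus strand), had 84.2, 82.5, 83.6, 76.6 and 80.8 CPM with ICI, against 39.2 to 45.8 CPM (median 42.8) with Vehicle. The groups did not overlap (log2 fold change 0.93 ± 0.033, adjusted p = 1.02e-25). Asns, asparagine synthetase (0.79, adjusted p = 5.24e-17), and the serine synthesis genes Phgdh (0.52, adjusted p = 4.29e-07) and Psat1 (0.59, adjusted p = 3.56e-15) rose as well. Of 19 tested aminoacyl-tRNA synthetase genes, a list chosen after values were seen, 16 were higher and 0 lower (against 13.9% and 12.5% of all genes), with a median of 0.24. Among 13 amino acid transporters, also chosen later, 4 were higher and 2 lower (the same shares of all genes), with Slc7a1 (0.80, adjusted p = 4.19e-17), Slc7a5 (0.62, adjusted p = 8.80e-13) and its partner chain Slc3a2 (0.60, adjusted p = 6.24e-22) at the top. The endoplasmic reticulum chaperone genes moved less: Hspa5, encoding BiP, rose by 0.34 (adjusted p = 1.60e-17), Calr, encoding calreticulin, by 0.38 (adjusted p = 7.24e-19), and Sdf2l1 by 0.58 (adjusted p = 1.60e-17), while Dnajb9 was not called (0.08, adjusted p = 0.0587). With 27HC the ICI effect on several of these genes was larger. Of the 22, 18 were higher and 2 lower in ICI + 27HC against 27HC (16.8% and 17.4% of all genes), with a median of 0.48. The ICI effect was larger for 12 and smaller for 8, where 17.4% of all genes differed in either direction. Atf4 averaged 407 ± 6.06 CPM with ICI + 27HC and 151 ± 1.31 CPM with 27HC, a log2 fold change of 1.43 (adjusted p = 1.00e-35), and the effect exceeded that without 27HC by 0.79 (adjusted p = 1.70e-20). Slc7a11 averaged 112 ± 4.45 CPM with ICI + 27HC and 43.3 ± 3.38 CPM with 27HC and rose by 1.37 (adjusted p = 2.01e-18), the opposite direction to ICI alone.

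**Figure D3:**
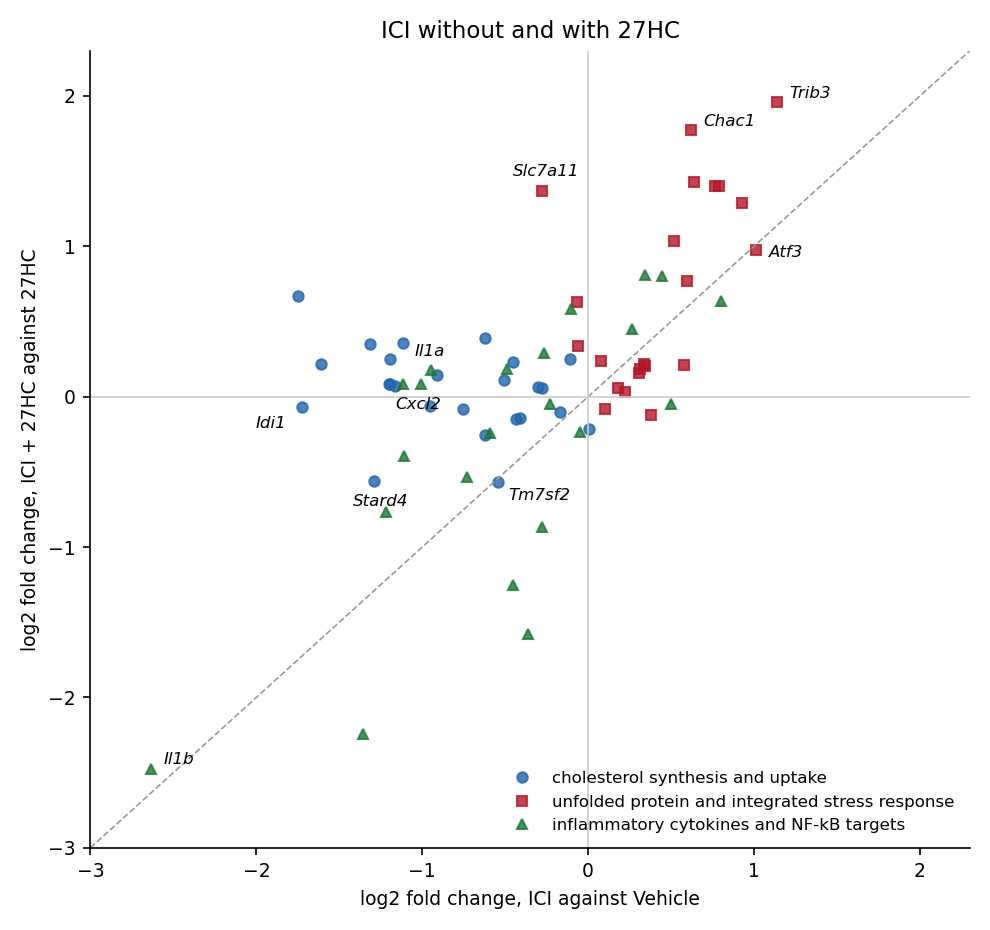
Log2 fold change of ICI against Vehicle (horizontal axis) and of ICI + 27HC against 27HC (vertical axis) for the tested members of 3 lists, 1 point per gene; the dashed line marks equal effects, and the axes use different libraries. Cholesterol genes spread along the horizontal axis and lie near 0 on the vertical axis, as with Idi1 at -1.73 and -0.07, while Trib3 lies at 1.14 and 1.96 and Il1b near the dashed line at -2.63 and -2.47.

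Antioxidant genes regulated by NRF2 were higher in 9 and lower in 1 of 13 tested (against 13.9% and 12.5% of all genes), with a median of 0.25; the lower gene was Slc7a11, which both lists hold. Hmox1, heme oxygenase, averaged 941 ± 22.9 CPM with ICI and 674 ± 30.9 CPM with Vehicle (log2 fold change 0.48 ± 0.024, adjusted p = 5.43e-21). The sulfiredoxin gene Srxn1 averaged 206 ± 3.46 CPM with ICI and 156 ± 2.91 CPM with Vehicle (log2 fold change 0.40 ± 0.021, adjusted p = 8.74e-20), and Sqstm1, encoding the autophagy receptor p62, averaged 972 ± 18.3 CPM with ICI and 761 ± 16.2 CPM with Vehicle (log2 fold change 0.35 ± 0.023, adjusted p = 9.22e-17). Prdx1, a peroxide-reducing enzyme, averaged 2865 ± 155 CPM with ICI and 2171 ± 69.1 CPM with Vehicle (log2 fold change 0.40 ± 0.032, adjusted p = 5.21e-14). The metallothionein gene Mt2, which responds to zinc, had 14.3, 17, 15.5, 15.6 and 15.5 CPM with ICI, against 5.28 to 7.95 CPM (median 6.52) with Vehicle, without overlap (log2 fold change 1.25 ± 0.078, adjusted p = 1.55e-17). Srxn1 and Prdx1 were also higher with E2 than with the same Vehicle libraries, by 0.18 (adjusted p = 3.32e-08) and 0.20 (adjusted p = 1.21e-05). There, 8 of the 13 genes were higher and 0 lower, against 2.2% and 2.49% of all genes.

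Glycolysis and hypoxia genes were lower in 16 and higher in 3 of 24 (against 12.5% and 13.9% of all genes), with a median of -0.17. Hif1a, the hypoxia-regulated transcription factor (chr12:73901375-73947530, plus strand), had 191, 189.8, 191, 192 and 195 CPM with ICI, against 302 to 358 CPM (median 330.5) with Vehicle. The ICI libraries lay close together and below all Vehicle libraries (log2 fold change -0.79 ± 0.042, adjusted p = 4.44e-20). Some known targets of the factor fell as well, while the hypoxia genes Car9 and Ndrg1 rose. The part of Hif1a in these changes was not tested. Pfkl, a phosphofructokinase subunit, fell by 0.37 (adjusted p = 3.98e-12), Bnip3, which marks mitochondria for removal, by 0.34 (adjusted p = 1.85e-11), P4ha1, a collagen hydroxylase, by 0.23 (adjusted p = 2.18e-11), and Vegfa, the angiogenic factor, by 0.42 (adjusted p = 1.79e-08). Small falls were called for the glycolytic enzyme genes Ldha (-0.24, adjusted p = 1.18e-09), Pkm (-0.17, adjusted p = 1.01e-08) and Eno1 (-0.22, adjusted p = 2.64e-09), while Gapdh was not called (-0.08, adjusted p = 0.158). Pfkp, Car9 and Ndrg1 were the 3 that rose, by 0.16, 0.25 and 0.22. Txnip, which is not on the list (chr3:96557957-96561883, plus strand), had the smallest p of the genes named: it had 213, 223, 217, 216 and 226 CPM with ICI, against 461 to 482 CPM (median 472) with Vehicle. Both groups were tight and far apart (log2 fold change -1.11 ± 0.021, adjusted p = 2.17e-36).

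Inflammatory cytokine and NF-kB target genes were lower in 11 and higher in 5 of 22 (against 12.5% and 13.9% of all genes), with a median of -0.41. Il1b, the gene of the fever cytokine interleukin-1β (chr2:129364570-129371139, minus strand), had 25.1, 25.2, 28.7, 22.7 and 31.6 CPM with ICI, against 139 to 205 CPM (median 153) with Vehicle. The highest ICI library was far below the lowest Vehicle library (log2 fold change -2.63 ± 0.167, adjusted p = 1.31e-16). Il1a (-0.95, adjusted p = 4.44e-05), Il6 (-1.22, adjusted p = 9.60e-04) and the neutrophil-attracting chemokine genes Cxcl1 (-1.11, adjusted p = 2.49e-07), Cxcl2 (-1.01, adjusted p = 9.34e-09) and Cxcl3 (-1.12, adjusted p = 5.56e-04) fell. Nlrp3, which builds the inflammasome that activates interleukin-1β, averaged 38.1 ± 1.63 CPM with ICI and 63.3 ± 4.38 CPM with Vehicle (log2 fold change -0.73 ± 0.046, adjusted p = 1.74e-17), and the adhesion gene Icam1 averaged 101 ± 3.65 CPM with ICI and 152 ± 10.9 CPM with Vehicle (log2 fold change -0.59 ± 0.044, adjusted p = 3.73e-15). The CC chemokine genes went the other way. Ccl4 averaged 49.6 ± 2.68 CPM with ICI and 28.5 ± 2.14 CPM with Vehicle (log2 fold change 0.80 ± 0.053, adjusted p = 7.82e-17), and Ccl3 (0.45, adjusted p = 9.82e-06), Ccl5 (0.50, adjusted p = 1.10e-12), Tnf (0.27, adjusted p = 0.0019) and the NF-kB inhibitor gene Tnfaip3 (0.34, adjusted p = 1.68e-07) also rose, while Ccl2 was not called (-0.10, adjusted p = 0.504). With 27HC, Il1b averaged 4.98 ± 1.68 CPM with ICI + 27HC and 27.8 ± 5.49 CPM with 27HC, a log2 fold change of -2.47 (adjusted p = 2.24e-12), and the difference from the effect without 27HC was not called (0.16, adjusted p = 0.776). Cxcl2 and Cxcl3 were not called there, with 0.08 (adjusted p = 0.633) and 0.08 (adjusted p = 0.839). Reads of the closely related Cxcl1, Cxcl2 and Cxcl3, and of Ccl3 and Ccl4, could in part be split between copies by the authors' counting.

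Among Toll-like receptors and their co-receptors, a list chosen after values were seen, 7 of 17 tested were lower and 3 higher (against 12.5% and 13.9% of all genes). Cd14, the co-receptor for bacterial lipopolysaccharide (chr18:36725067-36726798, minus strand), had 606, 608, 663, 629.9 and 665 CPM with ICI, against 1287 to 1470.2 CPM (median 1348) with Vehicle. Every ICI library was below the Vehicle range (log2 fold change -1.11 ± 0.040, adjusted p = 1.18e-25). Tlr2, the lipopeptide receptor, fell by 0.91 (adjusted p = 4.45e-20), and Tlr5, the flagellin receptor, was low throughout, with 0.426, 0.725, 0.583, 0.337 and 0.465 CPM in ICI libraries, against 1.2 to 2.26 CPM (median 1.61) in Vehicle libraries (log2 fold change -1.66 ± 0.285, adjusted p = 9.09e-06). Tlr4, which signals lipopolysaccharide, was not called (-0.10, adjusted p = 0.102). Cd180, a Toll-like protein known to restrain TLR4 in macrophages (chr13:102693558-102739629, plus strand), rose: it had 338, 344, 316, 341 and 314 CPM with ICI, against 133 to 170.0 CPM (median 146) with Vehicle, with the groups well apart (log2 fold change 1.17 ± 0.041, adjusted p = 4.06e-26). Fpr1, which senses bacterial formyl peptides, had 14.1, 18, 19.7, 14.9 and 18.1 CPM with ICI, against 59.9 to 79.9 CPM (median 66) with Vehicle (log2 fold change -2.01 ± 0.111, adjusted p = 5.70e-19). Adgre4, an adhesion G protein-coupled receptor related to F4/80 (chr17:55749984-55853662, plus strand), had 2.93, 4.34, 3.53, 3.22 and 3.98 CPM with ICI, against 21.1 to 26.2 CPM (median 24.2) with Vehicle. It was the most strongly lowered of the genes named by the rule, and the groups were far apart (log2 fold change -2.72 ± 0.134, adjusted p = 5.43e-21).

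Further genes with large falls had low CPM. Arg2, the mitochondrial arginase, had 1.11, 1.35, 1.3, 1.01 and 1.83 CPM with ICI, against 5.14 to 7.82 CPM (median 6.03) with Vehicle (log2 fold change -2.21 ± 0.162, adjusted p = 3.36e-15). Pecam1, an adhesion protein of leukocytes and endothelium, had 3.49, 3.85, 3.76, 3.81 and 3.97 CPM with ICI, against 12.8 to 17 CPM (median 13.5) with Vehicle (log2 fold change -1.89 ± 0.111, adjusted p = 2.05e-18). In both the groups did not overlap, which was a condition for naming them. Vnn3, a pantetheinase-family gene, fell by 2.11 (adjusted p = 1.32e-09), Gpr171, a G protein-coupled receptor gene, by 1.67 (adjusted p = 3.37e-06) and Mcemp1, a myeloid membrane protein gene, by 1.57 (adjusted p = 1.42e-04). Stk17b, an apoptosis-linked kinase gene named for its small p, had a higher level and a smaller fall than these. It averaged 152 ± 5.15 CPM with ICI and 234 ± 3.53 CPM with Vehicle (log2 fold change -0.62 ± 0.025, adjusted p = 6.12e-24). Among raised genes of low level, Tmem178, a membrane protein gene, had 2.76, 3.76, 4.57, 3.41 and 2.39 CPM with ICI, against 0.734 to 1.26 CPM (median 1.03) with Vehicle (log2 fold change 1.74 ± 0.189, adjusted p = 3.12e-10). P2ry1 averaged 2.5 ± 0.386 CPM with ICI and 0.845 ± 0.143 CPM with Vehicle (log2 fold change 1.55 ± 0.152, adjusted p = 2.10e-11), and Cox6a2, a muscle isoform of a respiratory chain subunit, averaged 1.59 ± 0.35 CPM with ICI and 0.537 ± 0.115 CPM with Vehicle (log2 fold change 1.55 ± 0.185, adjusted p = 4.02e-09). Efr3b, a plasma membrane scaffold gene, averaged 10 ± 0.611 CPM with ICI and 3.58 ± 0.382 CPM with Vehicle (log2 fold change 1.49 ± 0.097, adjusted p = 5.84e-17), Cst7, an inhibitor of lysosomal cathepsins, averaged 13.8 ± 1.37 CPM with ICI and 5.13 ± 0.609 CPM with Vehicle (log2 fold change 1.42 ± 0.088, adjusted p = 1.05e-17), and Nanos1, an RNA-binding protein gene, averaged 19.9 ± 1.43 CPM with ICI and 8.41 ± 0.619 CPM with Vehicle (log2 fold change 1.24 ± 0.080, adjusted p = 4.37e-17). In each of these genes all ICI libraries were above all Vehicle libraries, which was a condition for naming them. Cd5l, a secreted macrophage protein that LXR is known to raise in mice (chr3:87357881-87371073, plus strand), rose: it had 261, 268, 269.8, 291 and 278 CPM with ICI, against 94 to 124 CPM (median 103) with Vehicle, without overlap (log2 fold change 1.39 ± 0.045, adjusted p = 1.57e-27).

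**Figure D4:**
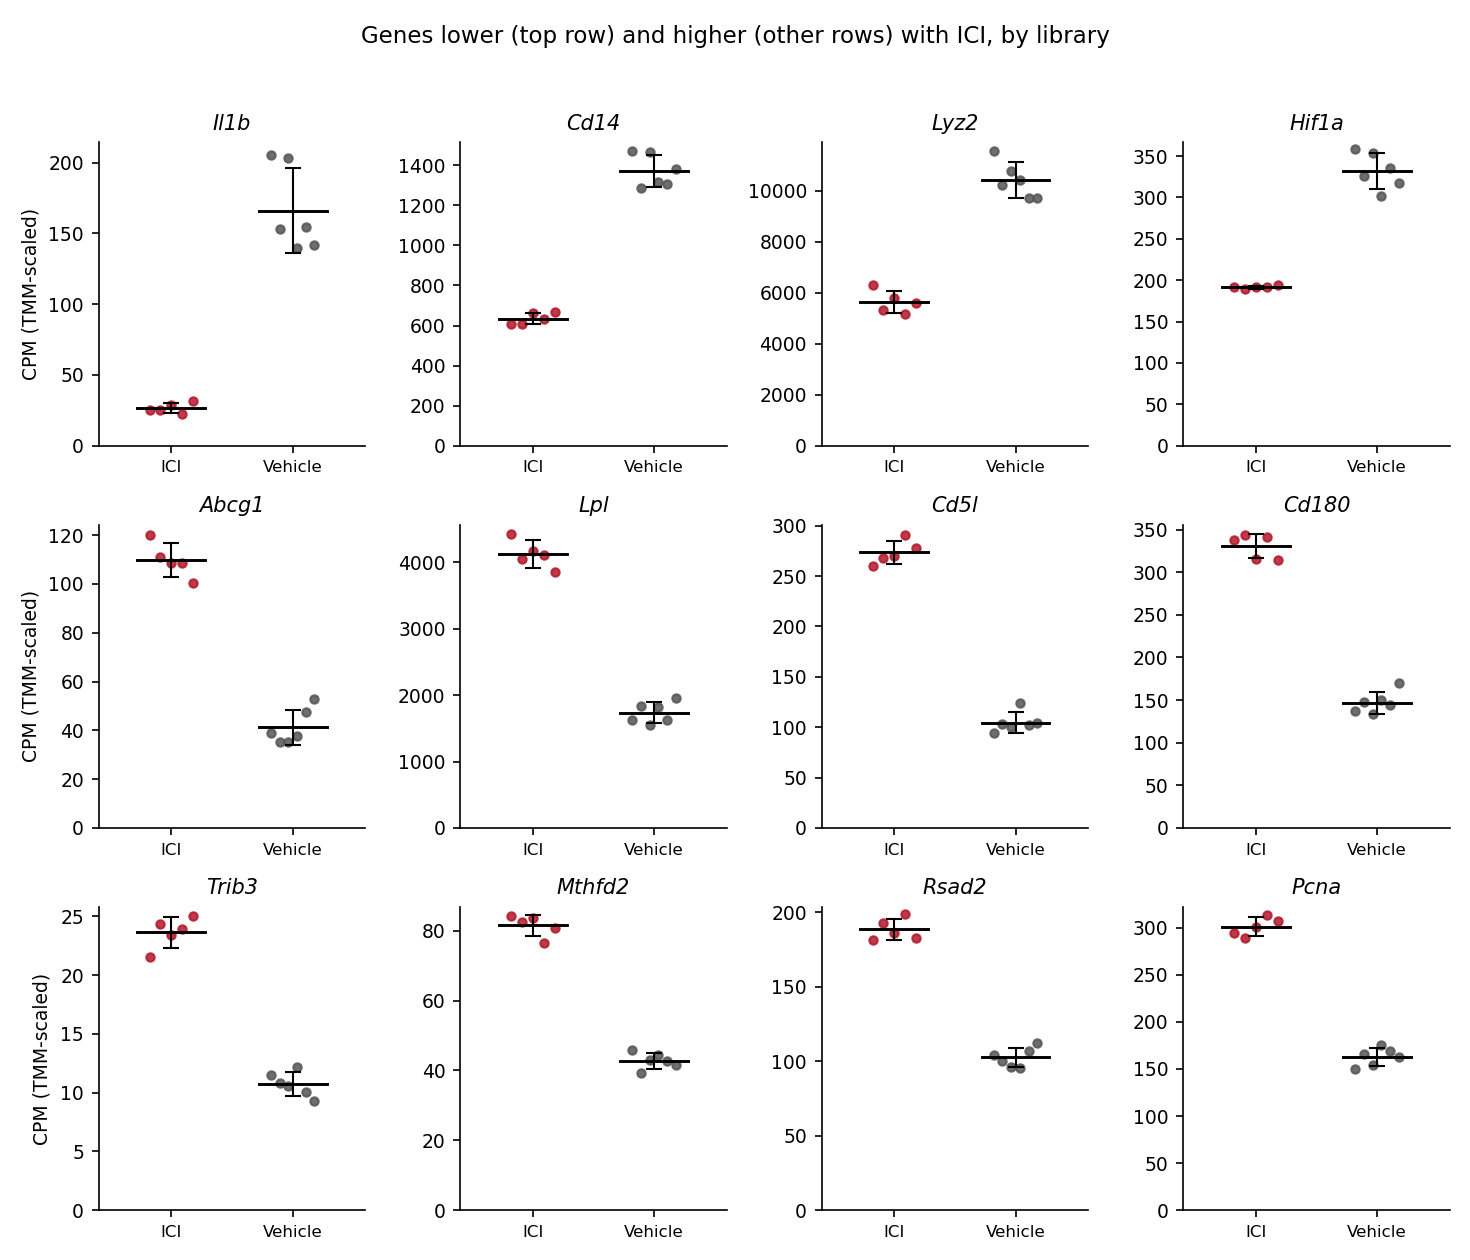
Levels (CPM, linear axes from 0) of 12 genes in each ICI and each Vehicle library; points are libraries, lines means and bars SD. Il1b, Cd14, Lyz2 and Hif1a are lower and the other 8 higher with ICI, with no overlap in any of the 12; Il1b has means of 26.6 CPM with ICI and 166 CPM with Vehicle.

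Of 30 interferon-response genes 14 were higher and 2 lower (against 13.9% and 12.5% of all genes) and 14 were not called, with a median of 0.12. The pattern GAAANNGAAA, the core of the element that interferon regulatory factors and STAT complexes bind, was found on either strand in 14 of 23 windows of the list, against 3.99% of all. The window of Rsad2 (chr12:26456403-26456702, minus strand), the gene of the list that rose most, is shown with the element in capitals, read on the other strand.
Rsad2: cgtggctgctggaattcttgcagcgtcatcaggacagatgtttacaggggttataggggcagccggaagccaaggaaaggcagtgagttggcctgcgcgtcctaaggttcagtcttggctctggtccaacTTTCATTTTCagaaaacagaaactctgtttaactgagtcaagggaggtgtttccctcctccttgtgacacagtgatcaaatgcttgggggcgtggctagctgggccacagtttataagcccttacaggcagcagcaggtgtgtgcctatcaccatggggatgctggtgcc

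Rsad2, encoding the antiviral enzyme viperin (chr12:26442746-26456452, minus strand), had 182, 193, 187, 199 and 183 CPM with ICI, against 95.6 to 112 CPM (median 102) with Vehicle. The groups did not overlap (log2 fold change 0.88 ± 0.048, adjusted p = 1.53e-19). Its neighbour Cmpk2, a nucleotide kinase gene, averaged 101 ± 3.39 CPM with ICI and 73.5 ± 4.44 CPM with Vehicle (log2 fold change 0.46 ± 0.061, adjusted p = 4.87e-08), and Oasl1, of the oligoadenylate synthetase-like family, averaged 109.6 ± 5.12 CPM with ICI and 81.8 ± 8.25 CPM with Vehicle (log2 fold change 0.42 ± 0.079, adjusted p = 3.90e-05). Ifi204, a DNA-sensing family member with close paralogs, averaged 407 ± 6.5 CPM with ICI and 359 ± 8.09 CPM with Vehicle (log2 fold change 0.18 ± 0.033, adjusted p = 2.46e-05). Among the regulators, Irf9 rose by 0.09 (adjusted p = 0.0142), Irf7 fell by 0.13 (adjusted p = 0.0178), and Stat2 (-0.09, adjusted p = 0.314) was not called. With E2 nearly all of these genes were lower against the same Vehicle libraries, including Irf7, which fell with ICI too. Of 30 genes 0 were higher and 29 lower, with a median of -0.51, where 2.2% of all genes were higher and 2.49% lower with E2; Rsad2 was at -0.72 (adjusted p = 2.05e-14) and Ifi204 at -0.41 (adjusted p = 2.20e-12). Because both comparisons use the same Vehicle libraries, they are given side by side only. The direct comparison of ICI with E2, which does not use Vehicle, had 29 of 30 genes higher and 0 lower, with a median of 0.58; of all genes 1988 (14.4%) were higher and 1812 (13.1%) lower. Rsad2 stood at 1.60 (adjusted p = 1.35e-27) there. With 27HC present, ICI raised 3 and lowered 11 of the 30, against 16.8% and 17.4% of all genes. Rsad2 was still higher there (0.54, adjusted p = 1.43e-10).

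**Figure D5:**
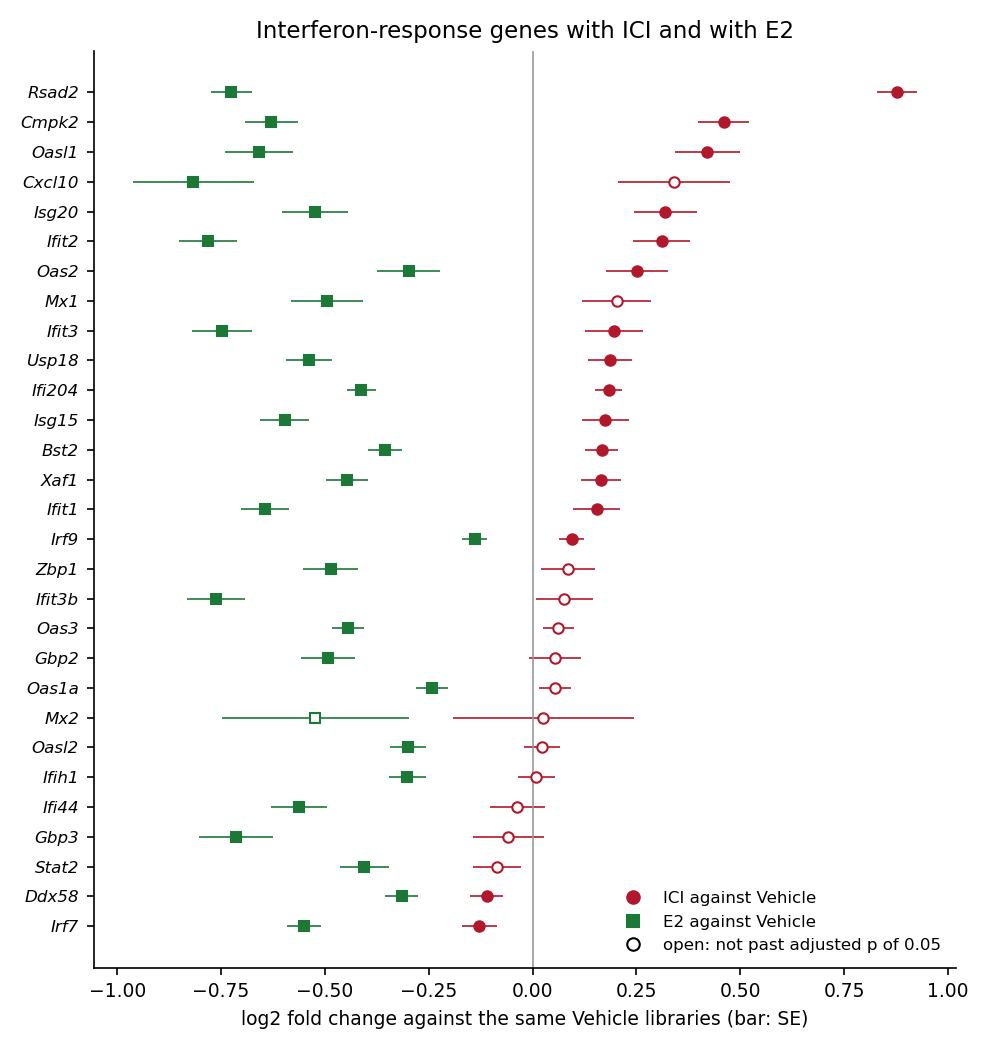
Log2 fold changes (horizontal axis, bars are SE) of 29 interferon-response genes with ICI and with E2, both against the same Vehicle libraries; filled points have an adjusted p under 0.05. ICI points lie between -0.13 for Irf7 and 0.88 for Rsad2, and all E2 points lie below 0.

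Of 12 tested MHC class II and co-stimulation genes 5 were higher and 2 lower, against 13.9% and 12.5% of all genes, so the lower share was near that of all genes. H2-Aa, an MHC class II chain gene (chr17:34282744-34287823, minus strand), had 56.3, 68, 70.9, 69.1 and 70 CPM with ICI, against 38.8 to 45.4 CPM (median 42.9) with Vehicle, without overlap (log2 fold change 0.65 ± 0.054, adjusted p = 1.98e-13). H2-Eb1 (0.61, adjusted p = 6.86e-11), H2-Ab1 (0.38, adjusted p = 4.53e-10) and the invariant chain gene Cd74 (0.23, adjusted p = 2.50e-06) rose with it. Ciita, which switches class II genes on, was not called (-0.35, adjusted p = 0.636). The co-stimulators Icosl (-0.63, adjusted p = 1.06e-07) and Cd86 (-0.30, adjusted p = 4.38e-04) fell, and Cd40 rose (0.26, adjusted p = 0.0129). E2 raised H2-Aa and H2-Eb1 as well relative to the same Vehicle libraries, by 0.34 (adjusted p = 2.51e-05) and 0.36 (adjusted p = 5.97e-05); ICI libraries were higher than E2 libraries by 0.31 (adjusted p = 1.92e-05) and 0.24 (adjusted p = 0.00313). Of 16 class I and peptide loading genes 4 were higher and 1 lower with ICI (against 13.9% and 12.5% of all genes), led by Calr; B2m was not called (-0.01, adjusted p = 0.776). Reads of near-identical H2 genes could be split between copies by the authors' counting.

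Macrophage identity genes were lower in 10 and higher in 5 of 15 (against 12.5% and 13.9% of all genes), with a median of -0.23, and their summed level was 16503 ± 306.7 CPM with ICI and 23183 ± 826 CPM with Vehicle (exact permutation p = 0.00216, adjusted p = 0.00432). Most of the fall in this sum was that of Lyz2, whose levels follow, so the sum says little about the other members. In bulk RNA, fewer cells of a type and less RNA per cell cannot be told apart. Lyz2, lysozyme (chr10:117277331-117282321, minus strand), had 6305, 5313, 5810.3, 5172 and 5604 CPM with ICI, against 9708 to 11576 CPM (median 10324) with Vehicle. All ICI libraries were lower (log2 fold change -0.88 ± 0.057, adjusted p = 9.64e-17). Fcgr3, a receptor for IgG, averaged 328 ± 9.77 CPM with ICI and 494 ± 17.3 CPM with Vehicle (log2 fold change -0.59 ± 0.030, adjusted p = 1.69e-20), and Adgre1, encoding F4/80, and Itgam, encoding CD11b, fell by 0.29 (adjusted p = 7.67e-11) and 0.51 (adjusted p = 5.76e-16). Cd68, a lysosomal glycoprotein, rose instead (log2 fold change 0.36 ± 0.023, adjusted p = 3.28e-17), as did the myeloid transcription factor gene Cebpa (0.41, adjusted p = 2.73e-13). Markers of stromal cells moved in the same direction: 0 of 10 tested were higher and 6 lower (against 13.9% and 12.5% of all genes), and their summed level was 3864.5 ± 242 CPM with ICI and 4623 ± 305 CPM with Vehicle, without overlap (exact permutation p = 0.00216, adjusted p = 0.00432). Col3a1, a fibrillar collagen gene, had 139, 156, 123, 144 and 120.4 CPM with ICI, against 225 to 273 CPM (median 246) with Vehicle (log2 fold change -0.85 ± 0.075, adjusted p = 1.24e-12); Col1a1 averaged 1475 ± 135 CPM with ICI and 1788 ± 164 CPM with Vehicle with overlap (log2 fold change -0.28 ± 0.075, adjusted p = 0.00405), and Sparc averaged 959.5 ± 32.7 CPM with ICI and 1101 ± 41.7 CPM with Vehicle (log2 fold change -0.20 ± 0.030, adjusted p = 6.73e-07). Summed neutrophil markers were 70.3 ± 1.90 CPM with ICI and 81.7 ± 7.12 CPM with Vehicle (exact permutation p = 0.0108, adjusted p = 0.0162), and summed lymphocyte markers 16.6 ± 2.49 CPM with ICI and 19.1 ± 1.39 CPM with Vehicle (exact permutation p = 0.0736, adjusted p = 0.0883). The part of these marker shifts in the gene results was not tested.

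Proliferation genes gave no common direction: 5 of 30 tested were higher and 5 lower, near the 13.9% and 12.5% of all genes, so the called members are given as single genes. Pcna, the sliding clamp (chr2:132249162-132253314, minus strand), had 295, 289, 300.3, 314 and 308 CPM with ICI, against 149 to 175 CPM (median 164) with Vehicle, without overlap (log2 fold change 0.89 ± 0.038, adjusted p = 3.71e-23). Cdt1, which licenses origins, averaged 49.2 ± 2.62 CPM with ICI and 33.1 ± 2.38 CPM with Vehicle (log2 fold change 0.57 ± 0.049, adjusted p = 4.54e-13), and the helicase subunits Mcm6 (0.41, adjusted p = 1.80e-12) and Mcm5 (0.24, adjusted p = 6.91e-04) and Gins2 (0.24, adjusted p = 0.0248) rose as well. The lower genes were Mki67 (-0.77, adjusted p = 0.00179), Ccnb1 (-0.58, adjusted p = 0.0114) and Top2a (-0.33, adjusted p = 0.0211), which peak late in the cycle, and the ribonucleotide reductase genes Rrm1 (-0.17, adjusted p = 0.0172) and Rrm2 (-0.24, adjusted p = 0.0151). With 27HC, ICI lowered 19 of the 30 and raised 2 (17.4% and 16.8% of all genes), with a median of -0.38. The ICI effect was more negative with 27HC for 17 and more positive for 0, where 17.4% of all genes differed in either direction.

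All 13 mitochondrially encoded transcripts were tested, and 9 were higher and 0 lower (against 13.9% and 12.5% of all genes), with a median of 0.32. mt-Co1, a subunit of cytochrome oxidase, averaged 8523 ± 536 CPM with ICI and 6566 ± 433 CPM with Vehicle (log2 fold change 0.38 ± 0.068, adjusted p = 2.81e-05). The complex I subunit genes mt-Nd4, mt-Nd5 and mt-Nd6 rose by 0.36 (adjusted p = 3.54e-05), 0.41 (adjusted p = 9.11e-05) and 0.30 (adjusted p = 2.24e-05). E2 raised 6 and lowered 0 of the 13 relative to the same Vehicle libraries, against 2.2% and 2.49% of all genes. Between ICI and E2 1 was higher and 0 lower with ICI, against 14.4% and 13.1% of all genes. With 27HC, ICI lowered 7 and raised 0 (17.4% and 16.8% of all genes). Since CPM are shares of a library, this change moves with all other genes; with these transcripts left out, 1819 genes were higher and 1813 lower with ICI.

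Over all genes, calls with ICI against Vehicle were set beside those with ICI + 27HC against 27HC, which use other libraries. Both come from the same fit and share each gene's spread estimate, so the calls are not independent and part of the overlap can reflect this. In the latter comparison 16.8% of all genes were higher and 17.4% lower. Of 1925 genes higher with ICI, 974 were also higher with ICI + 27HC against 27HC (50.6% of the first list and 42.0% of the second), 168 were lower and 783 were not called. Of 1729 genes lower with ICI, 981 were also lower there (56.7% of the first list and 40.8% of the second), 87 were higher and 661 were not called. Among the genes described, Cst7 (1.42 without and 1.28 with 27HC), Adgre4 (-2.72 and -2.79), Fcgr3 (-0.59 and -0.56) and Hmox1 (0.48 and 0.47) had similar log2 fold changes, and no difference was called for them. Mt2 rose more with 27HC, by 2.09 (adjusted p = 4.60e-26), and averaged 42.7 ± 3.19 CPM with ICI + 27HC and 9.97 ± 0.32 CPM with 27HC. Nanos1 and Igf1 were not called with 27HC, at -0.19 (adjusted p = 0.0673) and -0.04 (adjusted p = 0.442).

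E2, the agonist at the same receptors, changed fewer genes: 305 were higher and 345 lower than with the same Vehicle libraries, and 5 and 7 of these by at least 2-fold. Doses are not in the labels, so the size of the responses to ICI and E2 cannot be set against dose. Of the 25 cholesterol genes 1 was higher and 0 were lower with E2, near the 2.2% and 2.49% of all genes. Insig1 stood at 0.03 (adjusted p = 0.726) and Idi1 at 0.02 (adjusted p = 0.908). ICI libraries were lower than E2 libraries in 22 of the 25, against 13.1% of all genes, with Idi1 at -1.75 (adjusted p = 3.50e-28). Il1b was not called with E2 (-0.41, adjusted p = 0.124), and Abcg1 stood at -0.04 (adjusted p = 0.875). Side by side, Cd5l stood at 1.39 with ICI and 0.26 (adjusted p = 7.69e-05) with E2, Mylip at 0.89 and 0.24 (adjusted p = 6.53e-06), Atf4 at 0.64 and -0.15 (adjusted p = 2.56e-04), and Nlrp3 at -0.73 and 0.25 (adjusted p = 9.17e-05), in the same order.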

How the data were processed

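Per the labels, RNA was taken from BMDM with Qiagen RNeasy Plus columns, stranded libraries of polyadenylated RNA were made, and single reads were sequenced on an Illumina NovaSeq. Per the submitters' processing notes, kallisto 0.44.0 and GRCm38 were used. The deposited values are estimated counts per gene, and the step from transcripts to genes is not given in the sources used here, nor is whether strand was used, so overlapping antisense genes cannot be told apart.

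Estimated counts were rounded and tested with edgeR 4.0.16 (filterByExpr, TMM, quasi-likelihood fit with robust settings) in all 46 libraries with 1 mean for each of 9 groups, leaving 37 residual degrees of freedom. P-values were adjusted by Benjamini-Hochberg over 13838 genes with a threshold of 0.05; the biological coefficient of variation was 7.55%. For 1 group, GW3965 with a second compound, the labels disagree on that compound; it only enters the shared spread. Single values per library were compared by exact two-sided permutation tests over 462 arrangements. Symbols and positions come from GENCODE M21 for 24243 IDs, and the other 428 held 0.483% of the counts. Of the tested IDs 331 had a row identical to another ID. No 2 libraries were alike within counting error: the chi-square per degree of freedom was 4.69 to 11.8 between ICI pairs and 5.08 to 10.1 between Vehicle pairs, where counting error gives about 1. The test was checked on simulated counts. Promoter windows come from RefSeq.

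The genes, lists and tests were chosen with earlier results of these data known. Genes named are the receptor genes and the 12 highest, 12 lowest and 12 smallest p among called genes with a mean of at least 1 CPM and no overlap of the groups. For the genes named by these ranks the lack of overlap was thus a condition, not a result. From each list described, the 4 members ranked first by p were named as well. Further list members were named after their values were seen. Some genes that the rule picks, or that lists hold, are not reported here by name; counts and sums over lists include them. Alternatives were DESeq2, other scaling and filters, other samples in the fit, and leaving out each library.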

Additional observations from a re-analysis of the deposited data

Results flagged for a closer look

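Differences of the ICI effect with 27HC minus without it, on the log2 scale, were called for 59 of the 89 tested named genes, 25 positive and 34 negative. Most of these genes were named for their change with ICI against Vehicle, which is part of the difference tested, so the count is not set against that of all genes; each stands here because the effects in the presence and absence of 27HC differed by edgeR's quasi-likelihood test of the difference itself. For genes of cholesterol synthesis and uptake the differences were 1.67 for Sqle, 1.66 for Idi1 and 1.23 for Insig1. For stress and NRF2 genes the differences were 0.85 for Mt2, 0.84 for Sqstm1, 0.82 for Trib3, 0.79 for Atf4, 0.48 for Srxn1 and 0.36 for Mthfd2. In the same group, 0.27 for Prdx1 and -0.15 for Xbp1 came next. For lipid genes the differences were -1.46 for Abcg1, -0.93 for Lpl, 0.75 for Fabp4, -0.73 for Mylip, -0.56 for Pparg and -0.42 for Cd36. In the same group, -0.41 for Nr1h3 and 0.16 for Slc25a1 came next. For receptor, coregulator and estrogen-responsive genes the differences were -0.66 for Ccnd1, -0.52 for Igf1, -0.45 for Esr1, -0.43 for Igfbp4, 0.16 for Cxcl12 and -0.15 for Ddx17. In the same group, 0.14 for Ddx5 came next. For interferon-response and MHC genes the differences were -0.61 for Cmpk2, -0.37 for Oasl1, -0.34 for Rsad2, -0.31 for H2-Eb1 and -0.19 for Ifi204. For inflammatory, Toll-like and glycolysis and hypoxia genes the differences were -0.89 for Cd180, -0.65 for Fpr1, 0.48 for Hif1a, 0.36 for Txnip, 0.35 for Icam1 and 0.20 for Nlrp3. In the same group, 0.19 for Cd14 and 0.18 for Pfkl came next. For lysosomal, macrophage and replication genes the differences were -0.80 for Mcm5, -0.66 for Mcm6, -0.56 for Pcna, 0.35 for Lyz2, 0.29 for Atp6v0d2 and -0.27 for Cdt1. In the same group, -0.22 for Cd68 and -0.21 for Lipa came next. For mitochondrially encoded transcripts the differences were -0.55 for mt-Nd4, -0.52 for mt-Co1, -0.50 for mt-Nd5 and -0.39 for mt-Nd6. For the other genes named they were -1.43 for Nanos1, 1.10 for Cox6a2, -0.96 for P2ry1, -0.94 for Efr3b, 0.90 for Pecam1, -0.78 for Tmem178, 0.77 for Arg2 and -0.50 for Cd5l.

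Of 184 groups of 5 or 6 libraries examined for a single library apart from the rest by Dixon's criterion, 12 held such a library, and chance gives about 1 in 20. With ICI, replicate 4 was high in P2ry1 (3.17 CPM), Ddx17 (255 CPM) and Cxcl12 (113 CPM), and replicate 1 was low in Xbp1 (180.2 CPM) and H2-Aa (56.3 CPM). With Vehicle, replicate 1 was high in Vnn3 (3.48 CPM) and Pecam1 (17.0 CPM), replicate 3 was high in Xbp1 (158 CPM), and replicate 6 was high in Esr2 (0.224 CPM). Vehicle replicate 4 was high in Cd5l (124 CPM) and low in Ddx5 (597 CPM) and Srxn1 (150.3 CPM).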

How the results depend on the processing

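Counts of genes higher and lower with ICI were 1898 and 1818 with DESeq2, 1883 and 1769 with DESeq2's size factors, 1632 and 1503 without a filter on low counts, 1558 and 1633 with only the ICI and Vehicle libraries in the fit, and 1880 and 1734 with identical rows counted once, an alternative chosen after seeing the data. Leaving out each ICI or Vehicle library in turn gave 1634 to 1851 higher and 1574 to 1757 lower genes. The difference in the mitochondrially encoded share ran from 0.353 to 0.446 percentage points over the same omissions, with a largest exact permutation p of 0.00794. Over 1774 values of the named genes under other settings, ICI against Vehicle kept its direction and its side of the threshold in 1756, lost the call in 14 and gained it in 4, and the direction changed in 0. Most of these genes were named for their change in this same comparison, so these counts say little about the other called genes. The lost calls were those of Ddx5, Ddx17 and Nr1h3, for example Ddx17 without ICI replicate 4 (0.06, adjusted p = 0.159); the gained ones were those of Ncoa7 and Gper1, such as Gper1 without ICI replicate 3 (-1.50, adjusted p = 0.0274). For the difference of the ICI effect with and without 27HC, 36 of 2664 such values lost the call and 6 gained it; the lost calls were those of Esr1 (adjusted p up to 0.0798), Oasl1 (up to 0.133, without 27HC replicate 2), Tmem178 (up to 0.0922, without ICI replicate 3), Nlrp3 (up to 0.0623, without ICI replicate 4) and Fpr1 (0.0532, without ICI + 27HC replicate 3). ICI + 27HC against 27HC lost 21 and gained 11 of 1684 values, ICI against E2 lost 9 and gained 4 of 1685, and E2 against Vehicle lost 38 and gained 19 of 1774. The cause was not tested. Replicate numbers are shared between groups. The 5 pairs of ICI and Vehicle libraries with the same number had correlations of their deviations from the group means between -0.042 and 0.117. Of the 5 ICI libraries, 2 correlated best with the Vehicle library of their own number. A fit with the replicate block gave 1898 higher and 1731 lower genes with ICI than with Vehicle. For E2 against Vehicle the block gave 434 higher and 409 lower genes, against 305 and 345 without it. For the difference of the ICI effect with and without 27HC it gave 2570 genes, against 2403. What libraries with the same number have in common was not tested. Library totals limit genes of low level, such as Esr2 and Gper1, for which a missing call does not show an absence of change.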

Other observations

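In the counts of further lists here, the shares of all genes to set them against are 13.9% higher and 12.5% lower. Of 13 tested genes of alternative activation 2 were higher and 7 lower with ICI: F13a1, a coagulation factor subunit made by macrophages, had 7.44, 9.95, 7.57, 7.94 and 8.45 CPM with ICI, against 17 to 21 CPM (median 20.4) with Vehicle, without overlap (log2 fold change -1.25 ± 0.080, adjusted p = 3.56e-17), and Tgm2 (-0.65, adjusted p = 2.36e-22) and Socs3 (-0.61, adjusted p = 1.39e-06) fell, while Trem2, a lipid-sensing receptor gene, rose (0.44, adjusted p = 2.39e-12). Among 22 immediate early genes 8 were higher and 4 lower, with Fosb (1.05, adjusted p = 0.0115), Egr2 (1.04, adjusted p = 1.45e-09) and Dusp4 (1.02, adjusted p = 7.52e-18) raised and Ier3 (-0.70, adjusted p = 3.26e-13) lowered. Of 16 matrix and protease genes 6 were higher and 9 lower; the urokinase gene Plau (0.93, adjusted p = 1.90e-21) and the macrophage elastase gene Mmp12 (0.78, adjusted p = 9.17e-22) rose and Mmp9 (-0.79, adjusted p = 9.11e-11) fell.

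In the aryl hydrocarbon receptor list 5 of 17 were higher and 4 lower. Ahr itself fell (-0.86, adjusted p = 1.24e-12), and so did its repressor gene Ahrr (-0.66, adjusted p = 2.08e-10), while Nqo1 (0.69, adjusted p = 1.43e-12), which NRF2 also controls, and Gsta3 (0.93, adjusted p = 9.35e-10) rose. Among 14 tested genes for proteins that restrain T cells 3 were higher, Cd274, encoding PD-L1 (0.61, adjusted p = 3.06e-13), Havcr2 (0.40, adjusted p = 3.52e-06) and Lgals9 (0.16, adjusted p = 2.98e-05), and 4 were lower, Ptgs2 (-0.49, adjusted p = 8.73e-08), Vegfa (-0.42, adjusted p = 1.79e-08), Entpd1 (-0.32, adjusted p = 3.64e-07) and Vsir (-0.31, adjusted p = 1.70e-08), with a list median of -0.10; the share of higher genes was near that of all genes. Of 12 D cyclins, their kinases and inhibitors 3 were higher and 2 lower, near the shares of all genes, so only single genes are given: the kinase gene Cdk6 rose (0.65, adjusted p = 5.16e-09) beside Ccnd1 and Myc, and the inhibitor gene Cdkn1b fell (-0.41, adjusted p = 6.06e-08). Osteoclast genes split, with Acp5 (0.37, adjusted p = 2.87e-06) raised and Dcstamp (-0.52, adjusted p = 0.025), needed for cell fusion, lowered.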
